A study of Mus musculus with 16 samples.

Results

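Metallothioneins and zinc transporters were examined as a group of 6 genes, picked by symbol for their known roles, among the 56941 genes counted in murine gingival fibroblasts (mGF). The group held the metallothioneins Mt1 (ENSMUSG00000031765.9) and Mt2 (ENSMUSG00000031762.8), the zinc-sensing transcription factor Mtf1 (ENSMUSG00000028890.14), the zinc exporter Slc30a1 (ENSMUSG00000037434.8) and the zinc importers Slc39a14 (ENSMUSG00000022094.16) and Slc39a8 (ENSMUSG00000053897.16). All 6 were found in the table, and all 6 had enough counts to be among the 16306 genes tested.

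The study asked how a saturated fatty acid and an inflammatory cytokine, alone and together, change gene expression in gum fibroblasts, by bulk RNA-seq of 16 libraries, 4 per condition. The cells were primary fibroblasts of WT genotype, grown out of gingival tissue of C57Bl6 mice aged 3 to 6 months and used between passages 2 and 8. They were kept for 24 h in BSA (the albumin carrier alone, as the control), in IL-1β at 1 ng/mL, in palmitate at 200 µM bound to BSA, or in palmitate + IL-1β at the same doses. The labels do not say whether the 4 libraries of a condition came from separate cultures or animals, so the p-values measure the spread between these libraries, which may be technical. Between 21234789 and 92752515 counts fell on genes in a library, the highest total being that of palmitate replicate 10. Levels are given as CPM, with library sizes scaled by TMM factors, and a gene with 3 counts had between 0.0331 and 0.146 CPM, depending on the library.

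Metallothioneins are small, cysteine-rich proteins of the cytosol that bind zinc and copper and release them again when their thiols are oxidised. Free zinc is sensed by MTF1, which binds metal response elements and switches on Mt1, Mt2 and Slc30a1, whose product ZnT1 moves zinc out of the cell. ZIP14 (Slc39a14) and ZIP8 (Slc39a8) bring zinc, iron and manganese into the cytosol, and metallothioneins and ZIP14 are known in liver and other tissues as genes that inflammatory cytokines raise.

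The libraries carried the markers of fibroblasts. All 10 fibroblast markers passed the expression filter, their summed level lay between 40664 and 52650 CPM, and Fn1, the fibronectin gene, was the most abundant at a mean of 19302 CPM. Of 6 keratinocyte markers, 2 passed the filter, the sum lay between 0.563 and 1.35 CPM with Krt10 highest at 0.526 CPM, and Krt5, Krt14, Krt1 and Epcam were at 0 counts in 1 or more libraries. Of 7 leukocyte markers, 3 passed, the sum lay between 2.57 and 4.35 CPM with Csf1r highest, and Ptprc, Adgre1, Itgam and Cd3e were at 0 in 1 or more libraries. The 4 endothelial markers summed to between 1.42 and 2.25 CPM, with Cdh5 highest at 0.614 CPM, and the Schwann cell marker Sox10 was at 0 in 1 or more libraries. The 4 mural markers reached 157 to 199 CPM, with Mcam highest at a mean of 90.9 CPM. In bulk RNA, fewer cells of a type and less RNA per cell cannot be told apart. Among these markers Lyz2 was called lower in palmitate (log2 fold change -0.79). S100b, at 8 to 14 counts per BSA library, was called lower there too (-1.46) and with IL-1β added (-1.80). S100b passed the filter on low counts only through libraries without palmitate, where it was high. Its calls are therefore not read as evidence of a fall. In each treatment 1 mural marker was called higher and 1 lower. Of the fibroblast markers, 3 were called higher and 2 lower with IL-1β, 2 and 3 with palmitate, and 2 and 6 with palmitate + IL-1β, out of 10, where 15.1%, 37.3% and 47.3% of all genes tested were called. The part of these shifts in the results was not tested.

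Differences were tested with edgeR's quasi-likelihood test in 1 fit of all 16 libraries, and a gene was called at a Benjamini-Hochberg adjusted p under 0.05 over all genes tested. With IL-1β against BSA, 3 of the 6 genes were called, all higher (Mt1, Mt2 and Slc30a1), where 15.1% of all genes tested were called. With palmitate against BSA, 2 were called, both higher (Mt2 and Slc39a14), close to the 37.3% called over all genes. With palmitate + IL-1β against BSA, 5 were called, all higher (all but Slc39a8), where 47.3% of all genes were called. The median log2 fold change of the 6 was 0.33, 0.21 and 0.60 in these comparisons, beside -0.0049, -0.0030 and 0.0017 over all genes tested. The 3 comparisons share the same 4 BSA libraries.

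Between treatments, palmitate + IL-1β against palmitate called 1 of the 6 (Slc30a1, higher), where 9.81% of all genes were called. Palmitate + IL-1β against IL-1β called 2 (Mt2 and Slc39a14, both higher), where 35% were called. Palmitate against IL-1β called 4, with Mt2 and Slc39a14 higher in palmitate and Mt1 and Slc30a1 higher in IL-1β, where 31.6% were called. The interaction, the palmitate effect with IL-1β minus that without it, called 0 of the 6 in edgeR's quasi-likelihood test, where 1.99% of all genes were called. DESeq2 called 1 of the 6, Mt2, where it called 35 genes higher and 354 lower over all genes.

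**Figure D1:**
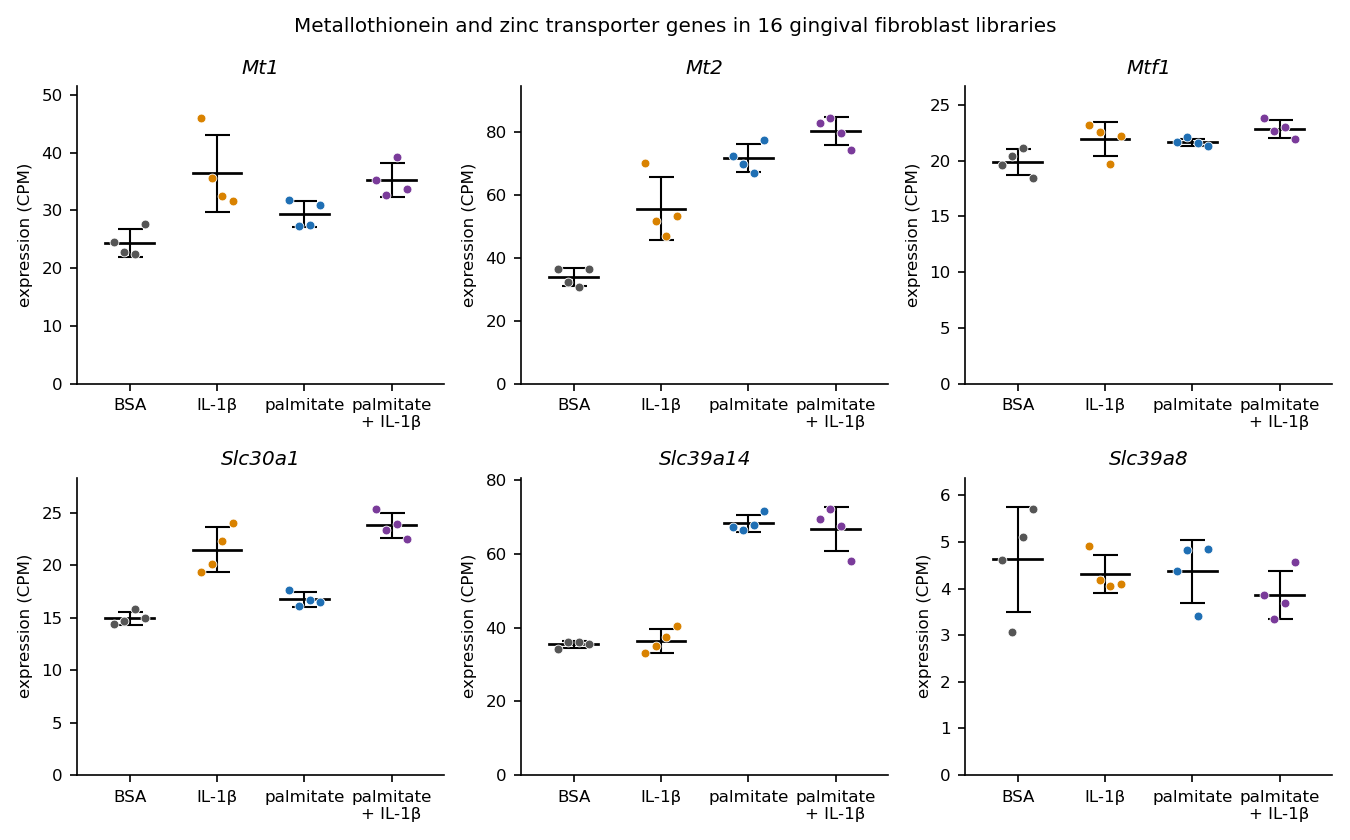
Expression of the 6 genes (CPM) in every library. Points are libraries, the line is the mean of 4 and the bar is 1 SD. Mt2 lay at 30.8 to 36.6 CPM in BSA and at 74.3 to 84.5 CPM in palmitate + IL-1β, and Slc39a14 at 33.0 to 40.5 CPM in BSA and IL-1β and at 58.2 to 72.1 CPM in both palmitate conditions.

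Of the metallothioneins, Mt2 changed most. Its level was 36.6, 32.3, 30.8 and 36.3 CPM in the BSA libraries, 70.1, 51.7, 47.1 and 53.4 CPM in IL-1β, 72.4, 69.9, 66.9 and 77.4 CPM in palmitate, and 82.9, 84.5, 79.6 and 74.3 CPM in palmitate + IL-1β. Every treated library lay above every BSA library, and IL-1β replicate 5 lay apart from the other IL-1β libraries, inside the range of palmitate. The means were 34.0 ± 2.88, 55.6 ± 10.1, 71.7 ± 4.41 and 80.3 ± 4.47 CPM (SD, n = 4 each). Against BSA this was a 1.63-fold rise with IL-1β (log2 fold change 0.70, SE 0.10, edgeR quasi-likelihood test with Benjamini-Hochberg adjustment, adjusted p = 2.4e-04). With palmitate the rise was 2.10-fold (1.07, SE 0.10, adjusted p = 6.4e-07 in the same edgeR test) and with palmitate + IL-1β 2.36-fold (1.24, SE 0.10, adjusted p = 8.1e-08). The level in palmitate + IL-1β was also above that in IL-1β, without overlap (0.53, SE 0.10, edgeR adjusted p = 6.3e-04). Palmitate and palmitate + IL-1β overlapped and differed by 0.17 (95% interval -0.043 to 0.38; edgeR adjusted p = 0.353), a difference called only in the fit of those 8 libraries (0.16, adjusted p = 0.0429). Mt2 was higher in palmitate than in IL-1β (0.37, SE 0.10, edgeR adjusted p = 0.0113), a call lost in the fit of those 8 libraries (0.36, adjusted p = 0.067).

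Mt2 had the largest interaction estimate of the 6 in size. It was -0.54 (95% interval -0.84 to -0.23), which missed the threshold in edgeR's quasi-likelihood test (unadjusted p = 0.0021, Benjamini-Hochberg adjusted p = 0.086). It passed with DESeq2 (-0.55, adjusted p = 0.00135), and in edgeR with no filter on low counts (-0.54, adjusted p = 6.4e-05), without IL-1β replicate 5 (-0.41, adjusted p = 0.00462) and without IL-1β replicate 7 (-0.62, adjusted p = 0.0167).

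Mt1 rose with IL-1β, alone and with palmitate, and was not called with palmitate alone. It stood at 24.5, 22.7, 22.4 and 27.7 CPM in BSA, at 46.0, 35.7, 32.4 and 31.6 CPM in IL-1β, at 31.7, 27.3, 27.5 and 30.9 CPM in palmitate, and at 35.3, 32.7, 39.3 and 33.7 CPM in palmitate + IL-1β. The libraries with IL-1β, alone or with palmitate, lay above all BSA libraries, while palmitate overlapped BSA through BSA replicate 4. IL-1β replicate 5 was again the highest of the IL-1β libraries. The rise was 1.49-fold with IL-1β (log2 fold change 0.58, SE 0.11, edgeR quasi-likelihood test, Benjamini-Hochberg adjusted p = 0.00176) and 1.45-fold with palmitate + IL-1β (0.54, SE 0.11, edgeR adjusted p = 7.5e-04). With palmitate alone the log2 fold change was 0.26 (95% interval 0.025 to 0.50), which missed the threshold in edgeR (adjusted p = 0.0792). That call changed with the fit: it passed with DESeq2 (adjusted p = 0.0293), and in edgeR with no filter on low counts (0.25, adjusted p = 0.00166), in the fit of the 8 libraries compared (0.25, adjusted p = 0.00458), without BSA replicate 4 (0.33, adjusted p = 0.0332) or without IL-1β replicate 5 (0.26, adjusted p = 0.00410). Mt1 was lower in palmitate than in IL-1β (-0.32, SE 0.11, edgeR adjusted p = 0.0364), but this call was lost without any 1 of 6 libraries, the smallest difference being the one without IL-1β replicate 5 (-0.19, adjusted p = 0.0603). The others were BSA replicate 1, IL-1β replicate 6, palmitate replicates 10 and 11, and palmitate + IL-1β replicate 13, with adjusted p from 0.0534 to 0.114. It was also lost in the fit of the 8 libraries compared (-0.32, adjusted p = 0.0871).

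Mt1 in palmitate + IL-1β lay above all palmitate libraries but was not called against them (log2 fold change 0.27; edgeR quasi-likelihood test, Benjamini-Hochberg adjusted p = 0.137). It passed in edgeR without IL-1β replicate 5 (0.28, adjusted p = 0.00832), with no filter on low counts (0.26, adjusted p = 0.00285) and in the fit of the 8 libraries compared (0.26, adjusted p = 0.00948).

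The balance of the metallothioneins shifted with palmitate. Counts of Mt2 per count of Mt1 in the same library were 1.49, 1.42, 1.37 and 1.31 in BSA, 1.52, 1.45, 1.45 and 1.69 in IL-1β, 2.28, 2.56, 2.43 and 2.50 in palmitate, and 2.35, 2.58, 2.03 and 2.20 in palmitate + IL-1β. All 8 libraries with palmitate lay above all 8 without it, and BSA and IL-1β overlapped, as did palmitate and palmitate + IL-1β. The means were 1.40 ± 0.0766, 1.53 ± 0.113, 2.44 ± 0.120 and 2.29 ± 0.235 (SD, n = 4 each). Each palmitate condition differed from BSA and from IL-1β in an exact two-sided permutation test (p = 0.0286, the smallest that 4 against 4 libraries can give; adjusted p = 0.0429 over 12 ratio comparisons). IL-1β against BSA gave an exact permutation p of 0.114 (adjusted 0.152), and palmitate + IL-1β against palmitate 0.286 (adjusted 0.343). These ratio comparisons were chosen after the values were seen.

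**Figure D2:**
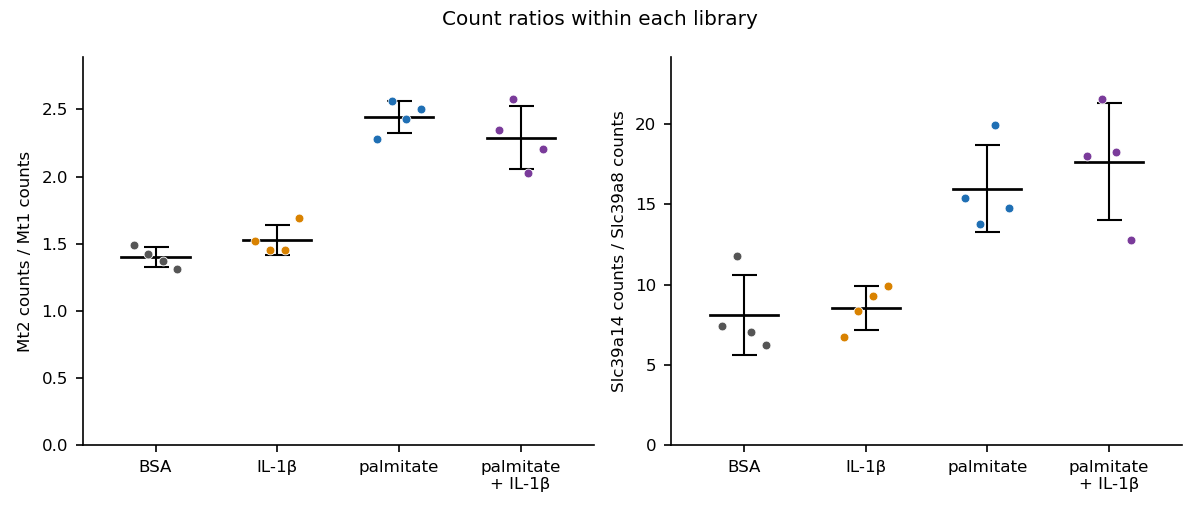
Counts of Mt2 per count of Mt1 (left) and of Slc39a14 per count of Slc39a8 (right) in every library. Points are libraries, lines are means of 4 and bars are 1 SD. The Mt2 to Mt1 ratio lay between 1.31 and 1.69 in the libraries without palmitate and between 2.03 and 2.58 in those with it.

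The genes lie side by side on mouse chromosome 8 (GRCm39), Mt2 at chr8:94898819-94900207 and Mt1 at chr8:94905710-94906955, both on the plus strand with 5502 bases between them. Their main annotated transcripts, 748 bases for Mt2 and 762 bases for Mt1, were 65.8% identical over 638 aligned bases, with a longest identical run of 16 bases, and Mt1 shared no stretch of 50 bases or more at 95% identity with another gene, so their reads can be told apart. Mt2 overlaps Gm45774, a long noncoding RNA gene on the opposite strand that covers 77.7% of the Mt2 transcript. The counts were made by strand, but the sources differ on the library kit, and whether reads of Mt2 were counted for Gm45774 was not tested. The counts of Gm45774 rose with palmitate (log2 fold change 1.01; edgeR quasi-likelihood test, Benjamini-Hochberg adjusted p = 3.4e-04) and with palmitate + IL-1β (0.70; adjusted p = 0.0108), and were not called with IL-1β (0.50, adjusted p = 0.161).

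Within 100000 bases of Mt1 the annotation places 14 genes, among them the other metallothioneins Mt3 and Mt4, and besides Mt1 and Mt2 4 were tested. Apart from Gm45774 they were Bbs2, a component of the ciliary BBSome, Nup93, a nuclear pore protein, and Gm45804. Palmitate lowered all 3, Bbs2 by a log2 fold change of -0.39, Nup93 by -0.22 and Gm45804 by -0.83 (edgeR quasi-likelihood test, Benjamini-Hochberg adjusted p = 3.2e-04, 2.7e-04 and 4.7e-04). With IL-1β none of the 3 was called (-0.21, 0.028 and -0.16, edgeR adjusted p = 0.0918, 0.749 and 0.607). With palmitate + IL-1β Bbs2 and Nup93 were lower (-0.64 and -0.12, edgeR adjusted p = 2.2e-07 and 0.0260), and Gm45804 was not called (-0.36, adjusted p = 0.0957). Over all genes tested, 37.3% were called with palmitate, 15.1% with IL-1β and 47.3% with palmitate + IL-1β. Mt3 had 0 to 2 counts per library and Mt4 had 0 in all 16, so neither was tested.

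**Figure D3:**
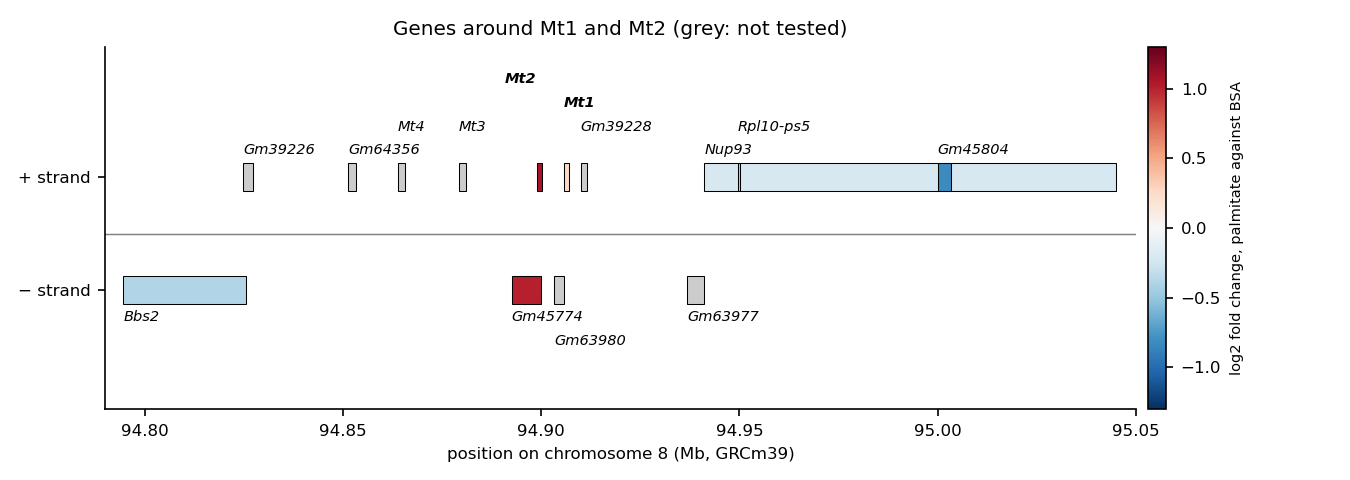
Genes within 100000 bases of Mt1 on mouse chromosome 8 (GRCm39), drawn to scale by strand. Colour gives the log2 fold change of palmitate against BSA, grey marks genes that were not tested. Counts of Mt2 (1.07) and of the antisense gene Gm45774 (1.01) rose, while Bbs2 (-0.39), Nup93 (-0.22) and Gm45804 (-0.83) fell.

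The transcription factor gene Mtf1 stayed within a narrow range. It stood at 19.6, 20.4, 21.2 and 18.5 CPM in BSA, 23.2, 22.6, 19.7 and 22.2 CPM in IL-1β, 21.7, 22.1, 21.6 and 21.3 CPM in palmitate, and 23.9, 22.6, 23.1 and 22.0 CPM in palmitate + IL-1β. IL-1β overlapped BSA through replicate 7, and the palmitate libraries lay just above the BSA libraries. The log2 fold change was 0.14 with IL-1β (95% interval 0.016 to 0.26; edgeR quasi-likelihood test, Benjamini-Hochberg adjusted p = 0.125) and 0.13 with palmitate (95% interval 0.0043 to 0.25; adjusted p = 0.0989). With upper-quartile scaling these were 0.092 and 0.056 (edgeR adjusted p = 0.324 and 0.492). Without IL-1β replicate 7 the IL-1β value was 0.19, past the threshold in edgeR (adjusted p = 0.0384). With palmitate + IL-1β it rose 1.15-fold (0.20, SE 0.06, edgeR adjusted p = 0.00533), a call that was lost with upper-quartile scaling (0.12, adjusted p = 0.0869) and with no filter on low counts (0.17, adjusted p = 0.0503).

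Slc30a1, which encodes the exporter ZnT1 of the plasma membrane, followed IL-1β. Its level was 14.4, 14.7, 15.8 and 15.0 CPM in BSA, 19.3, 20.1, 22.3 and 24.1 CPM in IL-1β, 17.7, 16.1, 16.7 and 16.5 CPM in palmitate, and 25.3, 23.4, 23.9 and 22.5 CPM in palmitate + IL-1β. The 8 libraries with IL-1β all lay above the 8 without it. IL-1β raised it 1.44-fold over BSA (log2 fold change 0.52, SE 0.07, edgeR quasi-likelihood test, Benjamini-Hochberg adjusted p = 6.4e-07) and 1.43-fold when added to palmitate (0.52, SE 0.06, edgeR adjusted p = 8.0e-07). Palmitate + IL-1β stood 1.60-fold over BSA (0.67, SE 0.07, edgeR adjusted p = 3.7e-10). The palmitate libraries lay just above the BSA libraries, with a log2 fold change of 0.16 (95% interval 0.020 to 0.30) that missed the threshold in edgeR (adjusted p = 0.0658). It passed without BSA replicate 3 (0.18, adjusted p = 0.0464) and without IL-1β replicate 8 (0.16, adjusted p = 0.0475). Palmitate added to IL-1β gave 0.15 (edgeR adjusted p = 0.0693), which passed without IL-1β replicate 8 (0.21, adjusted p = 0.0134) and without palmitate + IL-1β replicate 16 (0.18, adjusted p = 0.0486). The interaction estimate was -0.0079 (95% interval -0.20 to 0.18; edgeR adjusted p = 0.991).

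Slc39a14, which encodes the importer ZIP14, followed palmitate. Its level was 34.2, 36.1, 36.1 and 35.5 CPM in BSA, 33.0, 34.9, 37.5 and 40.5 CPM in IL-1β, 67.3, 66.5, 68.0 and 71.7 CPM in palmitate, and 69.5, 72.1, 67.5 and 58.2 CPM in palmitate + IL-1β. The 8 libraries with palmitate lay well above the 8 without it, palmitate + IL-1β replicate 16 being the lowest of them, and within each set of 8 the conditions overlapped. The rise over BSA was 1.93-fold with palmitate (log2 fold change 0.95, SE 0.06, edgeR quasi-likelihood test, Benjamini-Hochberg adjusted p = 2.2e-14) and 1.89-fold with palmitate + IL-1β (0.92, SE 0.06, edgeR adjusted p = 3.2e-14). IL-1β alone gave 0.043 (95% interval -0.082 to 0.17; edgeR adjusted p = 0.711), a value whose sign changed with upper-quartile scaling (-0.0041). IL-1β added to palmitate gave -0.030 (95% interval -0.15 to 0.086; edgeR adjusted p = 0.820), and the interaction -0.073 (95% interval -0.24 to 0.097; edgeR adjusted p = 0.845). Of the 6 genes it had the smallest adjusted p in palmitate against BSA, and by p it ranked 294 among all genes tested.

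Slc39a8, which encodes the related importer ZIP8, was the least abundant of the 6 and was not called in any of the 7 contrasts. Its level was 4.62, 3.07, 5.11 and 5.70 CPM in BSA, 4.91, 4.18, 4.05 and 4.10 CPM in IL-1β, 4.37, 4.83, 3.42 and 4.85 CPM in palmitate, and 3.85, 3.34, 3.70 and 4.57 CPM in palmitate + IL-1β, from 90 to 438 counts per library. All 4 conditions overlapped, and the BSA libraries spread the most, with replicate 2 lowest. The log2 fold change against BSA was -0.098 with IL-1β, -0.060 with palmitate and -0.26 with palmitate + IL-1β (95% intervals -0.40 to 0.21, -0.36 to 0.24 and -0.56 to 0.048), and the 0.95 of Slc39a14 with palmitate lay outside all 3 intervals. Without BSA replicate 2 the value for palmitate + IL-1β was -0.43 and passed the threshold in edgeR's quasi-likelihood test (Benjamini-Hochberg adjusted p = 0.0108), while without BSA replicate 4 it was -0.14 (adjusted p = 0.493). Counts of Slc39a14 per count of Slc39a8 averaged 8.11 ± 2.49 in the BSA libraries and 8.56 ± 1.37 in those with IL-1β, against 16.0 ± 2.71 with palmitate alone and 17.7 ± 3.65 with both agents (SD, n = 4 each). Both palmitate conditions differed from BSA and from IL-1β without overlap (exact two-sided permutation test, p = 0.0286, adjusted p = 0.0429 over the same 12 comparisons).

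Per length of the main transcript, the metallothioneins were the most abundant of the group. In BSA, Mt2 lay at 41.2 to 48.9 and Mt1 at 29.4 to 36.4 CPM per kb, followed by Slc39a14 at 6.57 to 6.95, Slc30a1 at 2.72 to 2.99, Mtf1 at 2.42 to 2.77 and Slc39a8 at 0.803 to 1.49 CPM per kb. Neighbours in this order did not overlap, except Slc30a1 and Mtf1. In palmitate + IL-1β the order was the same and no neighbours overlapped, with Mt2 at 99.4 to 113, Mt1 at 42.9 to 51.6, Slc39a14 at 11.2 to 13.9, Slc30a1 at 4.27 to 4.79, Mtf1 at 2.88 to 3.12 and Slc39a8 at 0.874 to 1.20 CPM per kb. Among all zinc importers, Slc39a14 in BSA stood below Slc39a1 (31.3 to 34.2), Slc39a6 (26.5 to 28.7), Slc39a13 (17.7 to 19.7), Slc39a9 (8.68 to 9.23) and Slc39a10 (8.53 to 9.12 CPM per kb).

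The promoter sequence was searched because Mt1, Mt2 and Slc30a1 are textbook targets of MTF1 and were the 3 genes called with IL-1β. The motif was the core of the metal response element, TGCACNC or TGCGCNC, on both strands, in the 250 bases before and the 250 bases after the annotated start of each gene's main transcript (GENCODE vM39, GRCm39). Before the start there were 2 matches for Mt2 and 1 each for Mt1, Slc30a1 and Slc39a8, while the letters were not found in these windows of Mtf1 and Slc39a14. Of the 21757 protein-coding genes, 21.9% held 1 or more matches there and 4.81% held 2 or more. After the start there were 5 matches for Mt2, 4 for Mt1, 2 for Slc30a1 and 1 for Slc39a14, where 27.6% of all genes held 1 or more, 7.14% held 2 or more and 0.345% held 4 or more. The matches after the start began at bases 10, 28, 92 and 106 of Mt1 and at bases 65, 119, 173, 192 and 226 of Mt2. What counts as before or after depends on the annotated start, and where transcription began in these cells was not measured. The sequence before the start is shown for the 3 genes called with IL-1β, 5′ to 3′ on the plus strand with metal response element cores in capitals, leaving out bases that lie in an exon of another transcript of the same gene. The stretches are chr8:94905460-94905709 for Mt1, chr8:94898940-94899131 for Mt2 and chr1:191638593-191638807 for Slc30a1.
Mt1: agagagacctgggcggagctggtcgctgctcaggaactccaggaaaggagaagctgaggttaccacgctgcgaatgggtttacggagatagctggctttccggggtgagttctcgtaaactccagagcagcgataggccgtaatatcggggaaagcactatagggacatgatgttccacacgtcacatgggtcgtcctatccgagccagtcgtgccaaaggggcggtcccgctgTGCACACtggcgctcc
Mt2: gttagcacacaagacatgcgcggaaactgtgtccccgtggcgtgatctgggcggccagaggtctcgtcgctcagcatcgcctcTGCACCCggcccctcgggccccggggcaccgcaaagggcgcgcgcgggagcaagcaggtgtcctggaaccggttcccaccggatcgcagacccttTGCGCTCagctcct
Slc30a1: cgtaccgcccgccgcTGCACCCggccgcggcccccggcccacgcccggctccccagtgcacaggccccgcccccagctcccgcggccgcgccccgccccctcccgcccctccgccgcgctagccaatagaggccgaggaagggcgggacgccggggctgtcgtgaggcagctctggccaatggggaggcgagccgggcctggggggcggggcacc

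Further motifs were searched in the same windows on both strands. The core of the antioxidant response element, TGACNNNGC, had 1 match before the start of Slc30a1, where 9.7% of genes held it, and 1 match after the start of each of Mt1 and Mt2, where 11% held it, none of them overlapping a metal response element core. The STAT motif TTCNNNGAA and the NF-κB consensus were not found in either window of the 6 genes, where 7.7% and 7.63% of all genes held them before the start. A match describes the letters of the sequence, and binding was not measured.

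The remaining zinc genes of the family were counted as a list of 23, made up of the other metallothioneins, the other ZnT exporters and the other ZIP importers, of which 14 had enough counts to be tested. IL-1β raised 4 of these and lowered 1, palmitate raised 7, and palmitate + IL-1β raised 6 and lowered 2, where 15.1%, 37.3% and 47.3% of all genes tested were called in these comparisons. Their median log2 fold changes were -0.0013, 0.14 and 0.064, beside the medians over all genes given above. The genes raised in each treatment include Slc39a4, which passed the filter on low counts only through the libraries with palmitate. Below the filter were Mt3, Mt4, Slc30a2, Slc30a3, Slc30a8, Slc30a10, Slc39a2, Slc39a5 and Slc39a12, with at most 22 counts in a library, the highest being those of Slc39a2.

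Of the exporters, Slc30a4 and Slc30a7, which load zinc into vesicles and the secretory pathway, were called higher in all 3 treatments. Slc30a4 rose from 106 ± 6.77 CPM in BSA to 125 ± 6.56 in IL-1β, 152 ± 4.02 in palmitate and 159 ± 5.20 CPM in palmitate + IL-1β (SD, n = 4), log2 fold changes of 0.24, 0.52 and 0.58 in edgeR's quasi-likelihood test (Benjamini-Hochberg adjusted p = 4.0e-04, 7.1e-11 and 3.5e-12). Slc30a7 gave 0.18, 0.28 and 0.28 (edgeR adjusted p = 0.0206, 1.1e-04 and 6.4e-05). Slc30a5, Slc30a6 and Slc30a9 were tested and not called against BSA, with log2 fold changes between -0.090 and 0.043.

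Of the importers, Slc39a6 was called higher in all 3 treatments, with log2 fold changes of 0.27, 0.21 and 0.35 in the order IL-1β, palmitate and palmitate + IL-1β (edgeR quasi-likelihood test, Benjamini-Hochberg adjusted p = 1.5e-05, 1.1e-04 and 2.3e-08). Slc39a1 and Slc39a7, the latter a zinc channel of the endoplasmic reticulum, were called higher in the palmitate conditions, Slc39a1 by 0.24 and 0.35 and Slc39a7 by 0.31 and 0.37. Slc39a13 was lower in palmitate + IL-1β (-0.13; edgeR adjusted p = 0.0365). Slc39a4, the importer known from intestinal zinc uptake, had 2 to 3 counts in each BSA library, 4 to 14 in IL-1β, 15 to 77 in palmitate and 32 to 39 in palmitate + IL-1β. Its pooled counts, per library size, were 3.62 times those of BSA with IL-1β (95% counting interval 1.74 to 8.25), 10.1 times with palmitate (5.31 to 21.4) and 13.9 times with palmitate + IL-1β (7.35 to 29.6). It was called higher in each treatment, but it passed the filter on low counts only through the libraries with palmitate, where it was high. These calls are therefore not read as evidence of a rise. The exact binomial intervals cover counting error only.

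Slc39a10, an importer that MTF1 is known to repress, moved in opposite directions. It stood at 56.4 ± 1.76 CPM in BSA, 44.6 ± 1.78 in IL-1β, 67.2 ± 2.72 in palmitate and 48.3 ± 1.53 CPM in palmitate + IL-1β (SD, n = 4). The log2 fold change was -0.34 with IL-1β, 0.25 with palmitate and -0.22 with palmitate + IL-1β (edgeR quasi-likelihood test, Benjamini-Hochberg adjusted p = 1.7e-06, 2.8e-05 and 1.4e-04). Adding IL-1β to palmitate lowered it by a log2 fold change of -0.47 (edgeR adjusted p = 3.4e-09), and the interaction was -0.13 (edgeR adjusted p = 0.469).

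**Figure D4:**
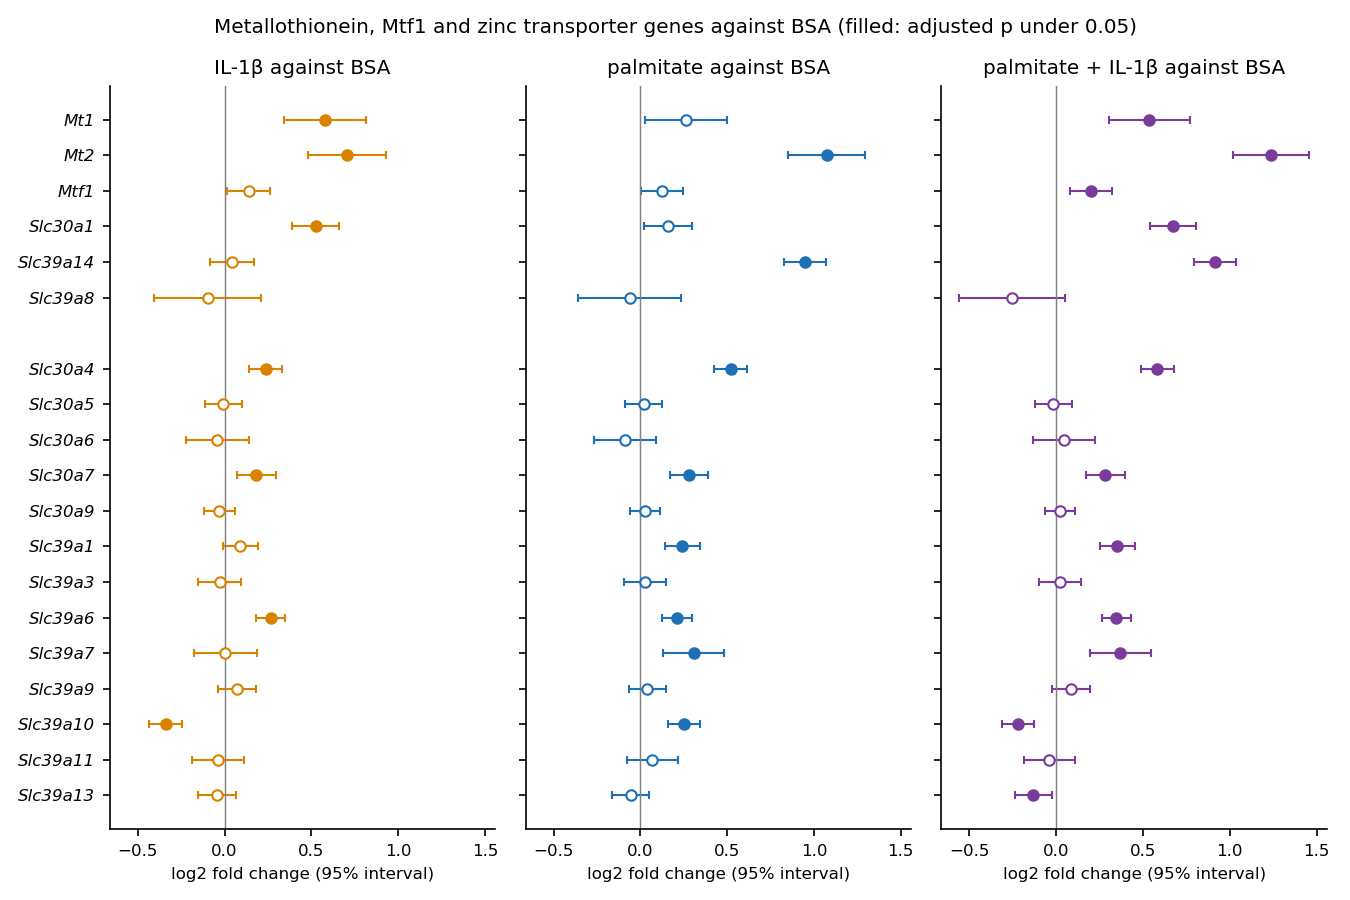
Log2 fold change against BSA of the 6 genes (upper block) and of the other tested zinc transporter genes (lower block) in each treatment, with 95% intervals. Filled points passed an adjusted p of 0.05 in edgeR's quasi-likelihood test. Slc39a4, with 2 to 3 counts in BSA libraries, is left out. Slc39a14 lay at 0.043 with IL-1β and at 0.95 and 0.92 with palmitate and palmitate + IL-1β, Slc30a1 at 0.52, 0.16 and 0.67.

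Of 5 other genes known to respond to MTF1, IL-1β raised 1 and lowered 2, palmitate raised 3, and palmitate + IL-1β raised 2 and lowered 3, beside 15.1%, 37.3% and 47.3% called over all genes tested. Their median log2 fold changes were -0.11, 0.25 and -0.16, beside -0.0049, -0.0030 and 0.0017 over all genes. Gclc, the catalytic subunit of the enzyme that starts glutathione synthesis, rose in all 3 by 0.69, 0.94 and 1.51 (edgeR quasi-likelihood test, Benjamini-Hochberg adjusted p = 6.6e-14, 3.7e-18 and 1.6e-23). Ndrg1 rose with palmitate by 0.36 and with palmitate + IL-1β by 0.15 (edgeR adjusted p = 1.7e-08 and 0.00262) and had -0.049 with IL-1β (edgeR adjusted p = 0.494). The next in size after Gclc and Ndrg1 was Slc39a10, which is also among the 14 other zinc genes above and which MTF1 is known to repress. The counts and medians therefore do not cover only genes that MTF1 raises.

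Genes for other metals were counted in the same comparisons, in which 15.1%, 37.3% and 47.3% of all genes tested were called with median log2 fold changes of -0.0049, -0.0030 and 0.0017. Of 9 copper genes, 8 were tested, with Atp7a, the copper pump, called higher in all 3 treatments (log2 fold change 0.24, 0.39 and 0.47) and Slc31a2, a copper transporter, in the palmitate conditions (0.81 and 0.89), and the other 6 tested, Sod1 among them, were not called. Their median log2 fold changes were 0.011, 0.041 and 0.19. Of 6 iron and manganese transport genes, 5 were tested, with 2 higher in IL-1β, 2 higher and 1 lower in palmitate, and 3 higher and 1 lower in palmitate + IL-1β, with medians of 0.14, 0.059 and 0.15. Slc11a2, a divalent metal importer, gave 0.85, 1.98 and 2.10, Tfrc, the transferrin receptor, 0.59, 1.08 and 1.25, and Slc40a1, the iron exporter, 0.14, -0.69 and -0.24, of which the IL-1β value missed the threshold (edgeR quasi-likelihood test, Benjamini-Hochberg adjusted p = 0.0584). S100a8 and S100a9, which bind zinc outside the cell, had at most 7 counts and 1 count per library and were not tested.

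The IL-6 family and STAT3 list was included because IL-6 is known to raise ZIP14 in liver. Of 10 genes, 9 were tested, and 5 were higher with IL-1β, 8 with palmitate and all 9 with palmitate + IL-1β, with median log2 fold changes of 0.16, 1.21 and 1.31. Over all genes tested 15.1%, 37.3% and 47.3% were called, with medians of -0.0049, -0.0030 and 0.0017. Il6 rose from 11 to 14 counts per library in BSA to 21 to 27 in IL-1β, 141 to 753 in palmitate and 248 to 352 in palmitate + IL-1β, log2 fold changes of 1.06, 4.19 and 4.41 (edgeR quasi-likelihood test, Benjamini-Hochberg adjusted p = 0.00225, 1.1e-19 and 1.4e-20). The paper gives the other order for a set of inflammatory genes that includes Il6, a great increase with IL-1β and a minor one with palmitate alone. Lif, another ligand of the family, gave 1.49, 2.89 and 3.04, all called. Socs3, a feedback inhibitor, gave 2.16 with palmitate and 1.79 with palmitate + IL-1β, and -0.15 with IL-1β (edgeR adjusted p = 0.465). Osm had 0 counts in all 16 libraries.

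Mt2 was the member with a called log2 fold change of 1 or more in size, and Klf5 and Mfhas1 were among the 3 genes most like it over the 16 libraries. Likeness was the root mean square difference of log2 CPM centred on each gene's BSA mean, 0.13 for Klf5 and 0.17 for Mfhas1, beside 0.55 for Mt1. Klf5, a transcription factor gene, had log2 fold changes of 0.58, 1.02 and 1.22 with IL-1β, palmitate and palmitate + IL-1β, and Mfhas1 0.62, 0.99 and 1.13. Within the group, Mt1 and Slc30a1 were the closest pair (0.21) and Mt2 and Slc39a8 the farthest (1.03).

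The other members lie apart from each other in the genome, at chr4:124695897-124743593 for Mtf1, chr1:191638808-191645361 for Slc30a1 and chr3:135531040-135594333 for Slc39a8 on the plus strand, and chr14:70540678-70588914 for Slc39a14 on the minus strand. Mtf1 shares 9.97% of its main transcript with the antisense gene 1110065P20Rik and Slc30a1 8.94% with the antisense gene 1700034H15Rik. Slc39a14 and Slc39a8 share 3.27% and 2.56% of theirs with other genes at 95% identity or more. Reads that align to more than 1 place were not counted, so the stretches of Slc39a14 and Slc39a8 may be under-counted. Those of Mtf1 and Slc30a1 are overlaps with genes on the opposite strand at the same place. Whether their reads were counted for the antisense genes was not tested.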

How the data were processed

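According to the submitters' notes, Trimmomatic 0.39 removed adapters, STAR 2.7.10a placed the reads on GRCm39 and HTSeq 2.0.9 counted them by gene and strand (GENCODE vM33 genes). The deposited values are raw counts for 56941 genes in 16 libraries, 4 per condition, neither filtered nor normalized. A further 5 summary rows name no gene, held 18.3% to 21.4% of a library's total and were not used. On library type the sources differ: oligo(dT) priming in the paper, a stranded total RNA kit in the labels. The authors' own test was DESeq2.

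Groups were taken from the labels, whose library names match the columns. The test was that of edgeR 4.0.16 in R 4.3.3 (glmQLFTest on a robust glmQLFit), preceded by TMM scaling (factors 0.970 to 1.04) and filterByExpr (minimum count 10, minimum total 15), which kept 16306 genes. All 16 libraries entered 1 fit with a mean per condition, with 7 contrasts and Benjamini-Hochberg adjustment over all genes tested. Intervals of log2 fold changes use the standard error and degrees of freedom of that test. The common biological coefficient of variation was 6.08%. The 24 pairs of replicates differed by more than sampling noise (chi-square per degree of freedom 2.64 to 18.7). CPM are computed here from the deposited counts.

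The genes named are the 6 members, the other metallothionein, ZnT and ZIP genes called in a treatment against BSA or under the filter, the 3 of each other list with the largest called log2 fold change against BSA, and genes among the 3 most like each member with a called log2 fold change of 1 or more (log2 CPM with prior count 2, average log2 CPM of 1 or more). The neighbours of Mt1, other untested or uncalled genes and the cell type markers named were chosen after their values were seen. The members and lists were chosen with earlier results of these data known. The count ratios were compared by exact permutation tests (scipy 1.17.1) added after seeing the data, as were the promoter, locus and per-kb work.

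Alternatives were DESeq2 1.42.0, upper-quartile scaling, no filter on low counts, at least 10 counts in every library, only the 8 libraries compared, a 1.5-fold threshold (glmTreat), leaving out mitochondrially encoded genes, and leaving out each library in turn. The steps were tested on simulated data. Positions and main (canonical) transcripts come from GENCODE vM39 on GRCm39, and shared sequence was searched with BLAST 2.17.0 at 95% identity over 50 bases or more.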

Additional observations from a re-analysis of the deposited data

Results flagged for a closer look

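Among the 24 groups of 4 libraries examined (the 6 genes in each condition), 1 held a library far from the others. For Slc39a8 in IL-1β, replicate 5 at 4.91 CPM stood above the other 3 libraries at 4.05 to 4.18 CPM, and its gap to the nearest of them made up 0.853 of the range of the group. Chance flags about 1 in 20 such groups. In the same library Mt1 and Mt2 were also the highest of their group, at 46.0 and 70.1 CPM, without passing that limit.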

How the results depend on the processing

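No paired analysis was possible because the libraries are numbered 1 to 16 and no number is shared between conditions. Under DESeq2, upper-quartile scaling, both other filters, the fit of only the 8 libraries compared and the fit without mitochondrially encoded genes, the number of the 6 genes called stayed within 1.5 times the value reported, with these exceptions. For palmitate + IL-1β against palmitate, 1 gene was called as reported, 2 with no filter on low counts and 3 in the fit of the 8 libraries. For palmitate against IL-1β, 4 were called as reported and 2 in the fit of the 8 libraries. For the interaction, 0 were called as reported, 1 with DESeq2 and 1 with no filter. The number called over all genes stayed within 1.5 times the value reported in each of these fits. Tested against a 1.5-fold change (glmTreat), 0 genes were called for IL-1β against BSA and for palmitate + IL-1β against palmitate, 2 for palmitate + IL-1β against BSA, and 1 each for palmitate + IL-1β against IL-1β and palmitate against IL-1β, since that test asks for larger changes.

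Over all genes it called 134 of the 2464 for IL-1β against BSA, 966 of 6083 for palmitate and 1311 of 7705 for palmitate + IL-1β, 36 of 1599 for palmitate + IL-1β against palmitate, 705 of 5712 against IL-1β, 591 of 5156 for palmitate against IL-1β and 56 of 324 for the interaction. Of the 14 other zinc genes it called 0, 1 and 1 in the treatments against BSA.

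Leaving out each library in turn, the members called ranged from 3 to 4 for IL-1β, 2 to 3 for palmitate and 5 to 6 for palmitate + IL-1β against BSA, from 1 to 2 for palmitate + IL-1β against palmitate, 2 to 3 against IL-1β, 3 to 4 for palmitate against IL-1β and 0 to 1 for the interaction. The number called over all genes stayed within 1.5 times the value reported in every one of these fits. For no called log2 fold change did the sign change under any alternative. Values not called changed sign as follows. Upper-quartile scaling gave Slc39a14 -0.0041 with IL-1β and Slc30a1 0.030 for the interaction. Without 1 library, Slc39a14 ranged from -0.0086 to 0.087 with IL-1β and from -0.071 to 0.030 for palmitate + IL-1β against palmitate, and Slc39a8 from -0.26 to 0.018 with IL-1β, -0.23 to 0.056 with palmitate, -0.037 to 0.13 for palmitate against IL-1β and -0.21 to 0.059 for the interaction. Mt1 ranged from -0.11 to 0.088 for palmitate + IL-1β against IL-1β, Mtf1 from -0.071 to 0.016 for palmitate against IL-1β, and Slc30a1 from -0.053 to 0.050 for the interaction. The cause of these shifts was not tested.

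Upper-quartile scaling moved the split of calls, to 1192 higher and 1551 lower with IL-1β (reported 1654 and 810), 2402 and 4064 with palmitate (3228 and 2855), and 3115 and 4938 with palmitate + IL-1β (4041 and 3664), with median log2 shifts down to -0.077. At 90 to 438 counts per library, Slc39a8 was measured least precisely, with standard errors of 0.14 to 0.15.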
